A study of Mus musculus with 2 samples.

Results

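Il10, Il10ra and Il10rb, the genes of the cytokine interleukin-10 and of the chains of its receptor, were followed through the leukocytes of mouse melanoma. They are 3 of the 32285 genes that the count tables list, matched by symbol. They were chosen because Il10 differed strongly between the libraries in macrophages, so its difference is given as a description with no test. The data are single-cell RNA sequencing (10x Genomics) of CD45-positive cells that had been sorted from subcutaneous tumours of B16F10, a mouse melanoma line, with 1 library per group. The IL4 library came from WT mice given bone-marrow-derived macrophages (BMDMs) that had been treated with IL-4. The control library came from WT mice given untreated BMDMs. Groups were taken from the treatment in the sample characteristics. The separate treatment protocol field gives the IL-4-treated kind of BMDM for either library, in conflict with the characteristics of the control library. Sex and age of the mice and the number of animals per library are not given in the sources used here, and no label names a mark that would set transferred macrophages apart from those of the host.

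IL-10 is secreted by macrophages, dendritic cells, T cells and B cells, and restrains inflammatory gene expression. It binds a receptor made of a private, ligand-binding chain (IL-10RA) and a chain that it shares with IL-22 and the type III interferons (IL-10RB). The kinases JAK1 and TYK2, which sit on these chains, then activate the transcription factor STAT3, whose best known target in this pathway is Socs3. Macrophages are both a main source and a main target of the cytokine, and in tumours they are regarded as one of its major producers.

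On the GRCm38 assembly (mm10), GENCODE places Il10 (ENSMUSG00000016529) on the plus strand of chromosome 1 at 131019845 to 131024974. Il10ra (ENSMUSG00000032089) lies on the minus strand of chromosome 9 at 45253837 to 45269149. Il10rb (ENSMUSG00000022969) lies on the plus strand of chromosome 16 at 91406164 to 91425834. Il10ra overlaps a processed pseudogene, Gm20612, on the other strand and the microRNA gene Mir7086, and Il10rb overlaps the protein-coding Gm21970 on its own strand. None of these neighbours has a row in the count tables. Reads shared with Mir7086 or Gm21970, which lie on the same strand as the receptor gene they overlap, thus cannot be told apart from its own.

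The IL4 library held 13873 barcodes with a median of 8213 unique molecular identifiers (UMIs, each standing for 1 captured transcript), and the control library held 8994 barcodes with a median of 9156.5. The libraries shared 23 barcode sequences. Ptprc, which encodes CD45, had a UMI in 89.6% of IL4 and 88.7% of control barcodes. Among other differences, the libraries stood apart in sex-linked transcripts: of the barcodes with a UMI of either Xist or Y-linked genes and not of both, those with Y-linked genes made up 10.9% in the IL4 and 36.7% in the control library. Results are therefore also given within barcodes that held Xist and no Y-linked UMI (Xist-only) and within those that held Y-linked UMIs and no Xist (Y-only). Barcodes were assigned to 6 classes by the number of marker genes they held, and the names are ranges of these counts, not proven cell types. The myeloid-like class took in 8985 IL4 and 6043 control barcodes, 65.3% and 67.6% of those kept. DC-like (dendritic) barcodes numbered 1291 in the IL4 and 865 in the control library, NK-like ones 374 and 146, T-like ones 310 and 189, neutrophil-like ones 71 and 147, and B-like ones 15 and 39. Another 1746 IL4 and 1004 control barcodes met the limits of more than 1 class or mixed macrophage transcripts with those of another class, and stayed apart as mixed.

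Il10 transcripts lay mostly in myeloid-like cells of both libraries and were about 3-fold as abundant there in the IL4 library. The IL4 library held 14043 Il10 UMIs and the control library 3667. Of those in kept barcodes, 75.5% lay in myeloid-like barcodes of the IL4 library and 75.5% in those of the control library, and a further 19.4% and 17.9% in mixed barcodes. Levels are given as CPM, the UMIs of a gene per 1000000 UMIs summed over the barcodes of a class. Over myeloid-like barcodes Il10 stood at 144.1 CPM in the IL4 library (95% exact Poisson interval 141.4 to 146.9), against 48.8 CPM (47.0 to 50.7) in the control library. The ratio was 2.95 (exact interval 2.83 to 3.08), a log2 ratio of 1.54 with 1 CPM added to both levels, as for all log2 ratios below. With 1 library per group there is no replicate check, and every interval covers counting error only. Il10 ranked 5 from the top by this ratio among the 15346 genes that had 20 UMIs or more over both libraries in the class.

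The same direction was seen in the main subdivisions of the myeloid-like class. Macrophage-like barcodes were those with at least 30 UMIs per 10000 in 8 macrophage markers, among them the C1q genes, Apoe and Ms4a7. They held Il10 at 199.5 CPM in the IL4 and 68.8 CPM in the control library, a ratio of 2.90 (2.76 to 3.05). Monocyte-like barcodes, below that limit and with at least 5 UMIs per 10000 in monocyte markers such as Ly6c2 and Ccr2, held it at 80.7 CPM in the IL4 and 29.0 CPM in the control library, a ratio of 2.79 (2.57 to 3.02). In both libraries the level was thus higher in macrophage-like than in monocyte-like barcodes, with intervals that did not overlap. The remaining myeloid-like barcodes, 332 in the IL4 and 270 in the control library, stood at 186.3 CPM in the IL4 and 38.01 CPM in the control library. Near the limit, between 20 and 40 marker UMIs per 10000, lay 2328 IL4 and 1503 control barcodes.

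**Figure D1:**
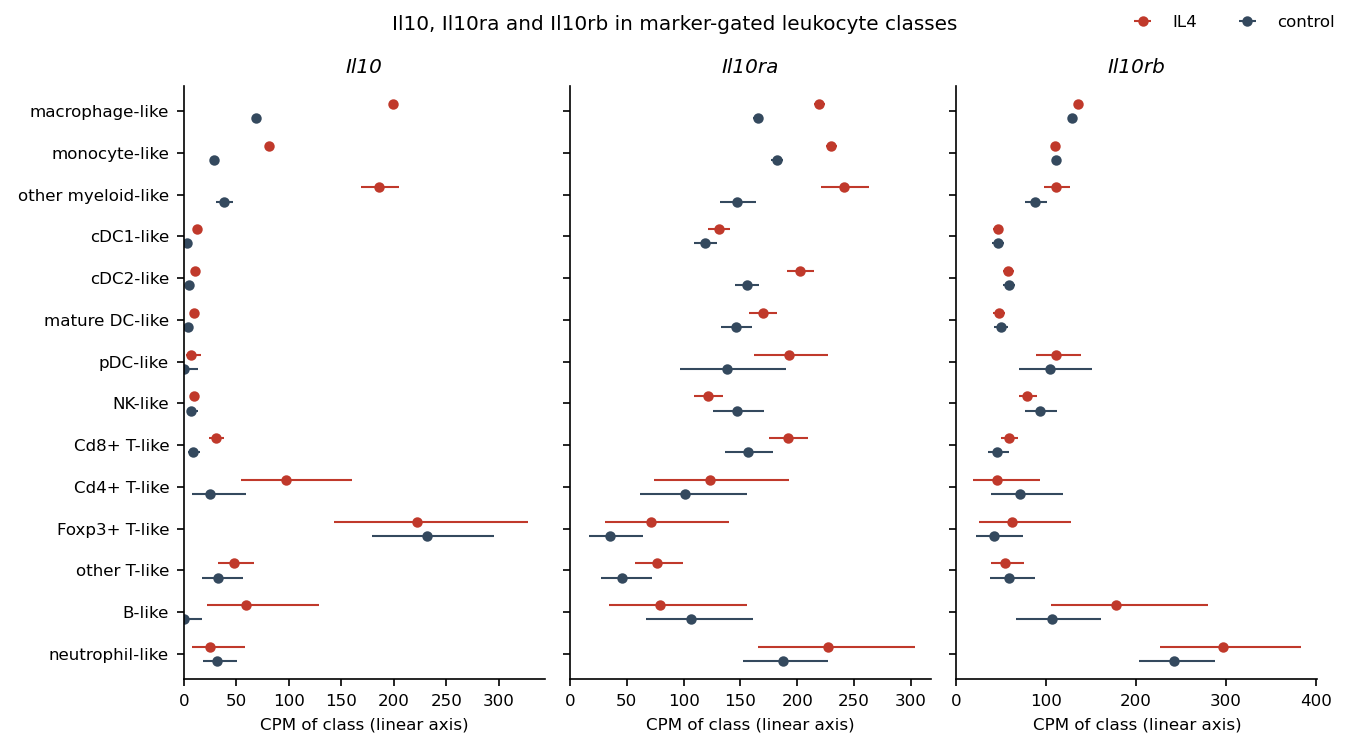
Levels of Il10, Il10ra and Il10rb (CPM of the class, linear axes) in marker-gated classes of the IL4 library (red) and the control library (dark blue); bars are 95% exact Poisson intervals for counting error, with 1 library per group. Il10 stands at 199.5 CPM in IL4 and 68.8 CPM in control macrophage-like barcodes, and the wide bars of Foxp3+ T-like, Cd4+ T-like and B-like barcodes rest on few barcodes.

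Splitting the myeloid-like barcodes by macrophage-marker level gave the same order at every level. Il10 climbed with these markers in both libraries. In the lowest of 7 bins, at under 5 marker UMIs per 10000, Il10 stood at 41.3 CPM in the IL4 and 16.2 CPM in the control library, and in the highest, at over 100, it stood at 221.7 CPM in the IL4 and 79.9 CPM in the control library. In each of the 7 bins the IL4 level was the higher one, by 2.35-fold to 3.38-fold. With the control bins weighted as in the IL4 library, the ratio was 2.89, close to the unweighted one. The barcodes of the class had a median of 7597 UMIs in the IL4 and 8665 in the control library.

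**Figure D2:**
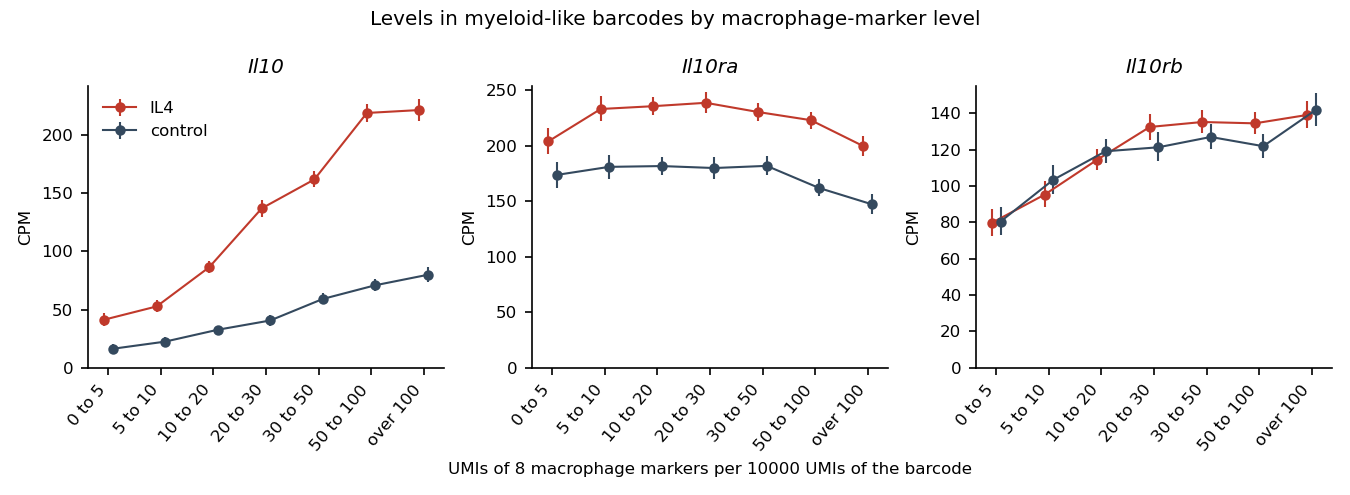
Level (CPM, from 0) of each gene in myeloid-like barcodes, in 7 bins of macrophage-marker level (UMIs of 8 markers per 10000), for the IL4 library (red) and the control library (dark blue), with 95% exact Poisson intervals. Il10 reaches 221.7 CPM in IL4 and 79.9 CPM in control barcodes of the top bin, Il10ra is higher in the IL4 library in all 7 bins, and the Il10rb curves cross.

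More barcodes held Il10 in the IL4 library, and more of them held many copies. After thinning each barcode to 1000 UMIs, which left out 98 IL4 and 69 control barcodes, 10.8% of IL4 myeloid-like barcodes (exact binomial interval 10.2% to 11.5%) had an Il10 UMI, against 4.45% (3.94% to 5.01%) of control ones. NK-like barcodes, which served as background for free RNA in the droplets, had a thinned share of 0.535% (0.0648% to 1.92%) in the IL4 library and none of 146 in the control library, where the interval reaches 2.49%. The myeloid-like shares thus lay above the NK-like ones, with intervals that did not overlap. NK-like barcodes were, however, selected for few macrophage transcripts. Neutrophil-like barcodes, under the same limit, had thinned shares of 2.90% (0.353% to 10.08%) in the IL4 and 3.47% (1.14% to 7.92%) in the control library. In the control library that interval includes the myeloid-like share. Unthinned, 30.8% of IL4 and 15.8% of control myeloid-like barcodes had at least 1 Il10 UMI, 7.95% and 2.90% had at least 5, and 2.95% and 0.728% had at least 10. Those with at least 1 carried 3.83 Il10 UMIs on average in the IL4 library and 2.90 in the control library. The 10% with the most Il10 UMIs, 898 IL4 and 604 control barcodes, held 73.3% of the class's Il10 UMIs in the IL4 library and 87.4% in the control library. These values depend on how many barcodes held any Il10 UMI, 30.8% in the IL4 and 15.8% in the control library. They therefore do not compare how concentrated Il10 was in the libraries.

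**Figure D3:**
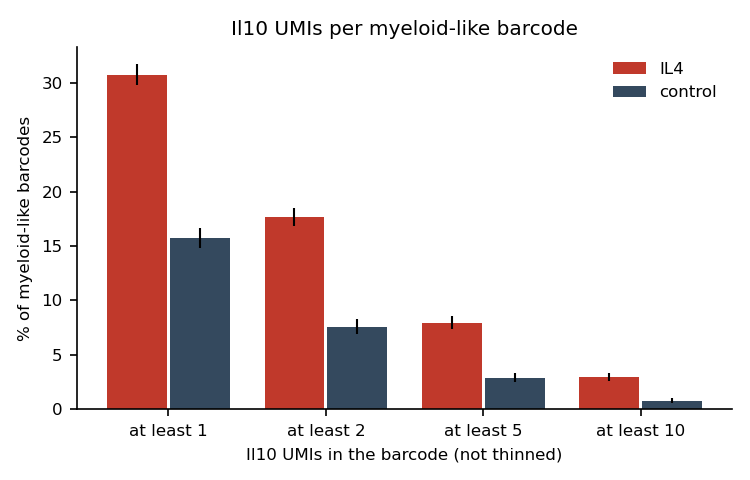
Share of myeloid-like barcodes (%, from 0) with at least 1, 2, 5 or 10 Il10 UMIs, not thinned, in the IL4 library (red) and the control library (dark blue); bars are 95% exact binomial intervals for counting error. At each limit the IL4 share is the higher one, from 30.8% against 15.8% at 1 UMI to 2.95% against 0.728% at 10.

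Xist-only and Y-only barcodes gave the same direction for Il10. Among Xist-only myeloid-like barcodes it stood at 145.0 CPM in the IL4 and 49.3 CPM in the control library, a ratio of 2.94 (2.78 to 3.12). Among Y-only ones it stood at 132.7 CPM in the IL4 and 43.1 CPM in the control library, a ratio of 3.08 (2.80 to 3.39). The difference was as large within each kind of barcode as in the whole class. In macrophage-like barcodes the ratio was 3.17 (2.95 to 3.41) among Xist-only and 2.66 (2.37 to 2.99) among Y-only ones. In monocyte-like barcodes it was 2.27 (2.05 to 2.53) among Xist-only and 4.20 (3.51 to 5.03) among Y-only ones, a spread that was not tested.

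**Figure D4:**
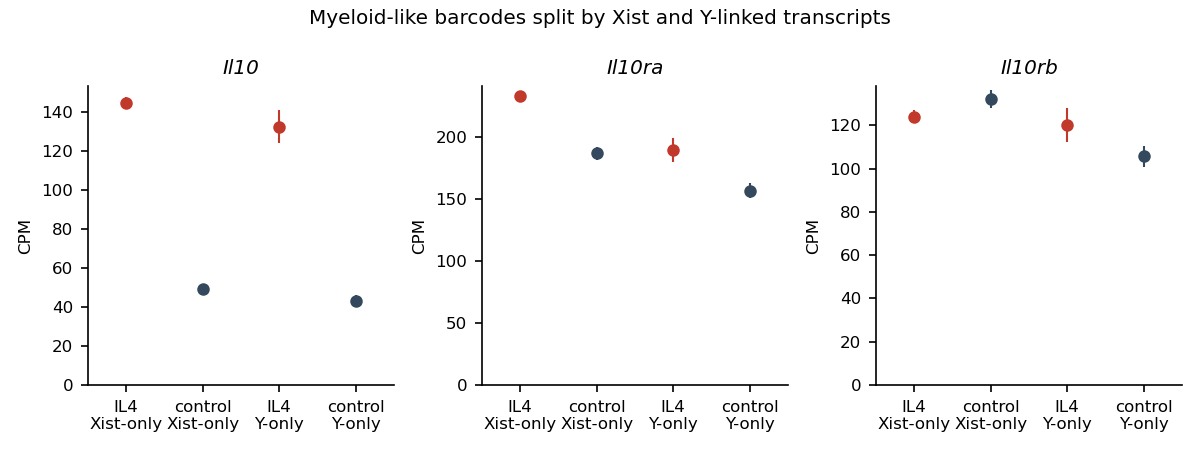
Levels (CPM, from 0) of the 3 genes in Xist-only and Y-only myeloid-like barcodes of the IL4 library (red) and the control library (dark blue), with 95% exact Poisson intervals. Il10 is near 3-fold higher in the IL4 library in both kinds (145.0 against 49.3 CPM, and 132.7 against 43.1 CPM), whereas for Il10rb the order of the libraries turns between Xist-only and Y-only barcodes.

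Il10ra, the ligand-binding chain on which the cytokine depends, was moderately more abundant in myeloid-like cells of the IL4 library. It stood at 225.1 CPM (221.7 to 228.6) there and at 172.6 CPM (169.2 to 176.1) in the control library, a ratio of 1.30 (1.27 to 1.34) and a log2 ratio of 0.38. This ratio was below the 1.5-fold used here to call a gene higher or lower, and 635 of the 15346 genes had a higher one. The thinned share was 20.8% in IL4 and 16.8% in control myeloid-like barcodes, with intervals that did not overlap. Macrophage-like barcodes had Il10ra at 219.6 CPM in the IL4 and 165.4 CPM in the control library, and monocyte-like ones at 230.1 CPM in the IL4 and 182.3 CPM in the control library. Unlike Il10, the Il10ra level did not climb with the macrophage markers. It was lowest in the top bin of both libraries, at 199.5 CPM in the IL4 library, where the interval overlapped that of the lowest bin, and 147.1 CPM in the control library. Its ratio lay between 1.17 and 1.38 over the 7 bins. Within Xist-only barcodes the ratio was 1.25 (1.21 to 1.29), and within Y-only barcodes 1.21 (1.13 to 1.29).

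Il10rb, the shared chain, was nearly equal in the libraries. In myeloid-like barcodes it stood at 123.3 CPM (120.7 to 125.8) in the IL4 and 118.9 CPM (116.1 to 121.8) in the control library, a ratio of 1.04 and a log2 ratio of 0.05. The thinned shares, 11.7% in IL4 and 11.3% in control barcodes, had overlapping intervals. Its level climbed with the macrophage markers, to 139.1 CPM in the IL4 and 141.9 CPM in the control library in the top bin, against 79.8 CPM in the IL4 and 80.4 CPM in the control library in the lowest. The IL4 level was the higher one in 3 of the 7 bins. Within Xist-only barcodes it was lower in the IL4 library, at 124.0 against 132.1 CPM (ratio 0.94, 0.90 to 0.98), and within Y-only barcodes higher, at 120.1 against 105.7 CPM (ratio 1.14, 1.05 to 1.23), so no direction is given for Il10rb.

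Transcripts of the receptor chains and of Il10 were also counted barcode by barcode in the myeloid-like class. Unthinned, 42.1% of IL4 and 42.4% of control myeloid-like barcodes had UMIs of both receptor chains, and 14.7% and 7.71% had UMIs of all 3 genes. At 1000 UMIs per barcode, both chains were seen in 2.53% of IL4 and 2.09% of control barcodes, close to the 2.43% in the IL4 and 1.89% in the control library that the shares of the single chains give when multiplied. Barcodes with a thinned Il10 UMI, called Il10-positive here, numbered 963 in the IL4 and 266 in the control library. In the IL4 library, Il10ra had a thinned UMI in 26.0% (23.2% to 28.9%) of Il10-positive barcodes, against 20.2% (19.3% to 21.1%) of Il10-negative ones. In the control library the shares were 19.9% (15.3% to 25.2%) and 16.6% (15.7% to 17.6%), whose intervals overlap. For Il10rb the shares were 13.7% in Il10-positive and 11.4% in Il10-negative barcodes of the IL4 library, and 13.9% and 11.2% in those of the control library, with overlapping intervals in each.

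Dendritic cells, which also respond to IL-10, carried Il10 at much lower levels. DC-like barcodes held it at 11.1 CPM (9.63 to 12.8) in the IL4 and 4.10 CPM (3.11 to 5.30) in the control library, a ratio of 2.72 (2.02 to 3.71). The thinned share was 1.24% (0.710% to 2.005%) in the IL4 and 0.694% (0.255% to 1.504%) in the control library. Both lie within the interval of the NK-like share, which rests on 2 positive barcodes in the IL4 and 0 in the control library, so no difference between these classes is read from the shares. The ratio of Il10 to C1q transcripts was 143 Il10 UMIs per 1000 C1q UMIs in IL4 DC-like barcodes and 68.2 in control ones, against 65.8 and 22.8 in myeloid-like barcodes. It was 139 in IL4 and 83.3 in control NK-like barcodes, and 281 in IL4 and 108 in control monocyte-like ones. DC-like and NK-like barcodes were limited in macrophage genes that include the C1q genes, which raises their ratio by design. These ratios therefore do not compare the classes. The part of free myeloid RNA in the low Il10 levels of DC-like barcodes was not tested. Il10ra was well represented, at 170.0 CPM in IL4 and 141.4 CPM in control DC-like barcodes, a ratio of 1.20 (1.14 to 1.27), and Il10rb stood at 53.8 CPM in the IL4 and 52.7 CPM in the control library.

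Among the named kinds of DC-like barcodes, Il10ra was highest in the cDC2-like ones, conventional dendritic cells marked by Cd209a. They held it at 202.8 CPM (191.3 to 214.8) in the IL4 and 155.7 CPM (145.6 to 166.3) in the control library. The cDC1-like barcodes, marked by Xcr1 and Clec9a, held it at 130.8 CPM (121.4 to 140.7) in the IL4 and 119.1 CPM (109.3 to 129.6) in the control library, below cDC2-like ones in both libraries. Mature DC-like barcodes, marked by Ccr7 and Fscn1, stood between these at 169.6 CPM in the IL4 and 146.0 CPM in the control library, with an interval in the control library that overlaps that of cDC2-like ones. Plasmacytoid (pDC-like) barcodes, 66 in the IL4 and 22 in the control library, held Il10ra at 192.6 CPM in the IL4 and 137.8 CPM in the control library, with intervals that overlap those of cDC2-like ones. Il10 in pDC-like barcodes came to 5 UMIs in the IL4 library and 0 in the control library, where 3 counts would be 11.2 CPM.

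T cells are another known source of IL-10, above all those that express Foxp3, the factor of regulatory T cells. T-like barcodes as a class held Il10 at 43.3 CPM (36.7 to 50.8) in the IL4 and 42.8 CPM (34.7 to 52.3) in the control library. In the control library 1 barcode gave 39 of the 96 UMIs, and without the barcode richest in Il10 the class stood at 38.2 CPM in the IL4 and 25.6 CPM in the control library. The Foxp3-positive T-like barcodes, taken as those with a Foxp3 UMI and none of Cd8a or Cd8b1, numbered 10 in the IL4 and 16 in the control library. They held 16.6% and 68.8% of the T-like Il10 UMIs. Their level was 221.7 CPM (143.5 to 327.3) in the IL4 and 232.0 CPM (179.4 to 295.1) in the control library, and 112.0 CPM in the IL4 and 100.2 CPM in the control library without the richest barcode of each. Such few barcodes allow no comparison beyond these values.

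Cd8-positive T-like barcodes were those with a Cd8a or Cd8b1 UMI and no Cd4 UMI, whether or not they held Foxp3. The 183 in the IL4 and 92 in the control library held Il10 at 30.9 CPM (24.5 to 38.6) and 8.78 CPM (4.54 to 15.3), a ratio of 3.52 (1.91 to 7.11). In the IL4 library 4 of these Cd8-positive barcodes held 33 of their 78 Il10 UMIs, with up to 11 in 1 barcode. In the control library no such barcode held more than 2. Their thinned shares, 2.19% (0.599% to 5.50%) in the IL4 and 1.09% (0.0275% to 5.91%) in the control library, overlapped the NK-like share. Cd4-positive, Foxp3-negative barcodes held 15 Il10 UMIs in the IL4 library, 11 of them in 1 barcode, and 5 in the control library. Il10ra in T-like barcodes stood at 161.6 CPM in the IL4 and 116.8 CPM in the control library, a ratio of 1.38 (1.19 to 1.61), and was highest in the Cd8-positive ones, at 191.6 CPM in the IL4 and 156.6 CPM in the control library. Cd8-positive barcodes made up more of the T-like class in the IL4 library (183 of 310) than in the control library (92 of 189), whose part in the Il10ra value was not tested. Il10rb stood at 57.4 CPM in IL4 and 49.5 CPM in control T-like barcodes, with overlapping intervals.

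In NK-like barcodes, in contrast to the other well-filled classes, Il10ra was below the control level in the IL4 library. It stood at 121.5 CPM (109.5 to 134.4) in the IL4 and 147.1 CPM (126.1 to 170.6) in the control library, a ratio of 0.83 (0.69 to 0.99), although in Y-only barcodes its log2 ratio was 0.06. B-like barcodes held Il10ra at 78.9 CPM in the IL4 and 106.5 CPM in the control library, with 8 and 22 UMIs behind them and overlapping intervals. Il10 in B-like barcodes came to 6 UMIs in the IL4 library and 0 in the control library, where 3 counts would be 14.5 CPM.

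Neutrophil-like barcodes held few Il10 UMIs and had the highest Il10rb level. Their Il10 came to 5 UMIs in the IL4 and 17 UMIs in the control library, or 25.2 CPM in the IL4 and 31.5 CPM in the control library. Il10rb stood at 297.3 CPM (226.3 to 383.5) in IL4 and 242.7 CPM (203.0 to 288.0) in control neutrophil-like barcodes. This was the highest of the 6 classes in both libraries, and in the IL4 library its interval overlapped that of the next class, the 15 B-like barcodes at 177.4 CPM. Il10ra stood at 226.8 CPM in IL4 and 187.2 CPM in control neutrophil-like barcodes, which did not differ from the myeloid-like level beyond counting error in either library.

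The order of the classes differed from gene to gene. For Il10 in the IL4 library, myeloid-like barcodes were followed by B-like, T-like, neutrophil-like, DC-like and NK-like ones, and the myeloid-like interval alone stood clear of the next. In the control library the order was myeloid-like, T-like, neutrophil-like, NK-like, DC-like and B-like, and only the step between neutrophil-like and NK-like barcodes exceeded counting error. Below the leading neutrophil-like and myeloid-like classes, Il10ra ran from DC-like through T-like and NK-like to B-like barcodes in the IL4 library, and from NK-like through DC-like and T-like to B-like barcodes in the control library. Il10rb was lowest in T-like and DC-like barcodes of both libraries, whose intervals overlapped.

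Other genes of the pathway were compared in myeloid-like cells by counting members at least 1.5-fold higher or lower in the IL4 library. Over all 15346 genes 221 were higher (1.44%) and 169 lower (1.10%), and the median log2 ratio was -0.05. Taken relative to that median, the counts were 280 and 128. Of 11 genes of receptor signalling and its induced repressors, 1 was higher and 0 were lower, and their median was 0.29. Socs3, the feedback inhibitor that STAT3 induces, rose to 544.5 CPM in the IL4 library, against 361.3 CPM in the control library (log2 ratio 0.59). It lay just past the limit, stayed past it under 5 of 11 alternative settings, and in Xist-only barcodes its log2 ratio was 0.54. Etv3, a transcriptional repressor induced by IL-10, lay just short at 157.0 CPM in the IL4 and 104.6 CPM in the control library (log2 ratio 0.58). Socs1, a related inhibitor of JAK kinases, stood at 60.2 CPM in the IL4 and 42.7 CPM in the control library, and Bcl3, a nuclear inhibitor of NF-kB-driven genes, at 98.6 CPM in the IL4 and 77.5 CPM in the control library. The direction of Socs1 turned between the kinds of barcode, with log2 ratios of 0.73 in Xist-only and -0.10 in Y-only ones, so none is given for it. Among the Y-only ones Etv3 had 0.66 and Bcl3 0.65, both past the limit, and among the Xist-only ones they had 0.41 and 0.10. None of the kinases and the factor themselves passed the limit. Jak1 stood at 340.6 CPM in the IL4 and 383.1 CPM in the control library, Tyk2 at 19.2 CPM in the IL4 and 18.9 CPM in the control library, and Stat3 at 339.4 CPM in the IL4 and 345.6 CPM in the control library.

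The promoter of Socs3 is shown because Socs3 was the one signalling gene past the limit. The RefSeq table gives it on GRCm38.p6 at chr11:117969317-117969616 on the minus strand, from 250 bases before to 50 bases after the start of the gene. Capitals mark the 1 match to TTCNNNGAA, the core of STAT binding motifs, which reads the same on both strands. It begins at position 97, which is 154 bases before the start site, and was not matched to any published STAT3 site of Socs3.
Socs3: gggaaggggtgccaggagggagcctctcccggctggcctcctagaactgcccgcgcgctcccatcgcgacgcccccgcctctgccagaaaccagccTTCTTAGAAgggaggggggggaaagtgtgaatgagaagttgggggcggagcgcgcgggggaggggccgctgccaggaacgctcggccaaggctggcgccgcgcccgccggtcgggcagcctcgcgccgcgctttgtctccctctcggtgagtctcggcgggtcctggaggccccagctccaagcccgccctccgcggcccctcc
The same letters occur in 2726 of the 32851 promoters of the table (8.3%). Of the 14 genes that IL-10 is known to raise, 13 have an entry, with 17 promoters, and 5 of these 17 promoters held the motif. They belong to 4 genes, Socs3, Zfp36, Sbno2 and Fcgr1. A match is a description of the sequence and not evidence of binding.

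Genes that IL-10 is known to raise in macrophages went in both directions. Of the 14, which share 6 genes with the signalling list, 1 was higher and 2 were lower, and the median log2 ratio was 0.13. The member past the limit was again Socs3. Cd163, a haemoglobin scavenger receptor, fell to 2.38 CPM in the IL4 library, against 6.01 CPM in the control library (log2 ratio -1.05). Mertk, a receptor for the uptake of dying cells, fell to 34.1 CPM in the IL4 library, against 51.9 CPM in the control library (log2 ratio -0.59), and 3 of the 11 alternative settings put it short of the limit. Il1rn, the interleukin-1 receptor antagonist, stood at 211.5 CPM in the IL4 and 151.1 CPM in the control library, and Hmox1, haem oxygenase 1, at 300.7 CPM in the IL4 and 442.0 CPM in the control library.

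Of 15 inflammatory genes that IL-10 is known to restrain in macrophages, 6 were higher and 1 was lower in the IL4 library, and the median log2 ratio was 0.50. Tnf rose to 441.6 CPM in the IL4 library, against 233.7 CPM in the control library (log2 ratio 0.91). Il1a, an inflammatory cytokine, rose to 51.2 CPM in the IL4 library, against 25.3 CPM in the control library (log2 ratio 0.99). The chemokine genes Ccl4 and Cxcl10 had log2 ratios of 0.79 and 0.71. Il23a, the private chain of IL-23, stood at 9.21 CPM in the IL4 and 3.34 CPM in the control library (log2 ratio 1.23), with log2 ratios of 2.28 in Y-only barcodes and 0.89 in Xist-only ones. Il12b, the chain that IL-12 and IL-23 share, had the largest ratio of the list, at 8.47 CPM in the IL4 and 1.10 CPM in the control library (log2 ratio 2.18). It was far more abundant in DC-like barcodes, at 198.3 CPM in the IL4 and 79.0 CPM in the control library, and with mixed barcodes kept in the myeloid-like class its log2 ratio was 0.33. The part of dendritic transcripts in the Il12b value was not tested. Nos2, the inducible nitric oxide synthase, fell to 3.23 CPM in the IL4 library, against 8.34 CPM in the control library (log2 ratio -1.14). In Xist-only barcodes its log2 ratio was -0.40, short of the limit, against -1.56 in Y-only ones. In DC-like barcodes 5 of the 14 list members with at least 20 UMIs were higher and 0 lower, where 2.15% of all genes were higher and 3.44% lower. Of the 15 genes, 7 were higher and 0 lower in macrophage-like barcodes (all genes 2.16% and 2.12%), and 6 were higher and 1 lower in monocyte-like ones (all genes 1.6% and 1.65%).

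Transcription factors known to act on Il10 stayed largely within the limit. Of 20, 1 was higher and 0 were lower, and the median log2 ratio was 0.06. The one past the limit, Gata3, which acts on Il10 in type 2 helper T cells, stood at only 2.41 CPM in the IL4 and 0.813 CPM in the control library, a log2 ratio of 0.91, and in Y-only barcodes its direction turned (log2 ratio -0.25). Nfkb1, which encodes the NF-kB subunit p50, lay just short of the limit at 968.2 CPM in the IL4 and 645.2 CPM in the control library (log2 ratio 0.58), with 0.93 in Y-only barcodes and 0.40 in Xist-only ones. Rel, another NF-kB subunit, stood at 899.1 CPM in the IL4 and 664.9 CPM in the control library (log2 ratio 0.43). Maf, a leading activator of Il10 in macrophages and T cells, stood at 238.1 CPM in the IL4 and 263.3 CPM in the control library, and Ahr, the aryl hydrocarbon receptor, at 98.5 CPM in the IL4 and 134.6 CPM in the control library (log2 ratio -0.45).

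Relatives of IL-10 and of its receptor were either scarce or within the limit. Of 16 genes of the IL-10 cytokine family and the class II cytokine receptors, 7 had at least 20 UMIs in myeloid-like cells, and 0 of these passed the limit in either direction. The cytokine genes Il19, Il20, Il22 and Il24 had 0 or 1 UMI in each library. Il22ra2, which encodes a soluble IL-22 binding protein, came to 16 UMIs in the IL4 and 24 UMIs in the control library. The interferon-gamma receptor chain Ifngr1 stood at 183.3 CPM in the IL4 and 203.5 CPM in the control library, and Ifngr2 at 139.2 CPM in the IL4 and 122.9 CPM in the control library. F3, the tissue factor gene and a distant receptor relative, stood at 9.41 CPM in the IL4 and 8.54 CPM in the control library.

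**Figure D5:**
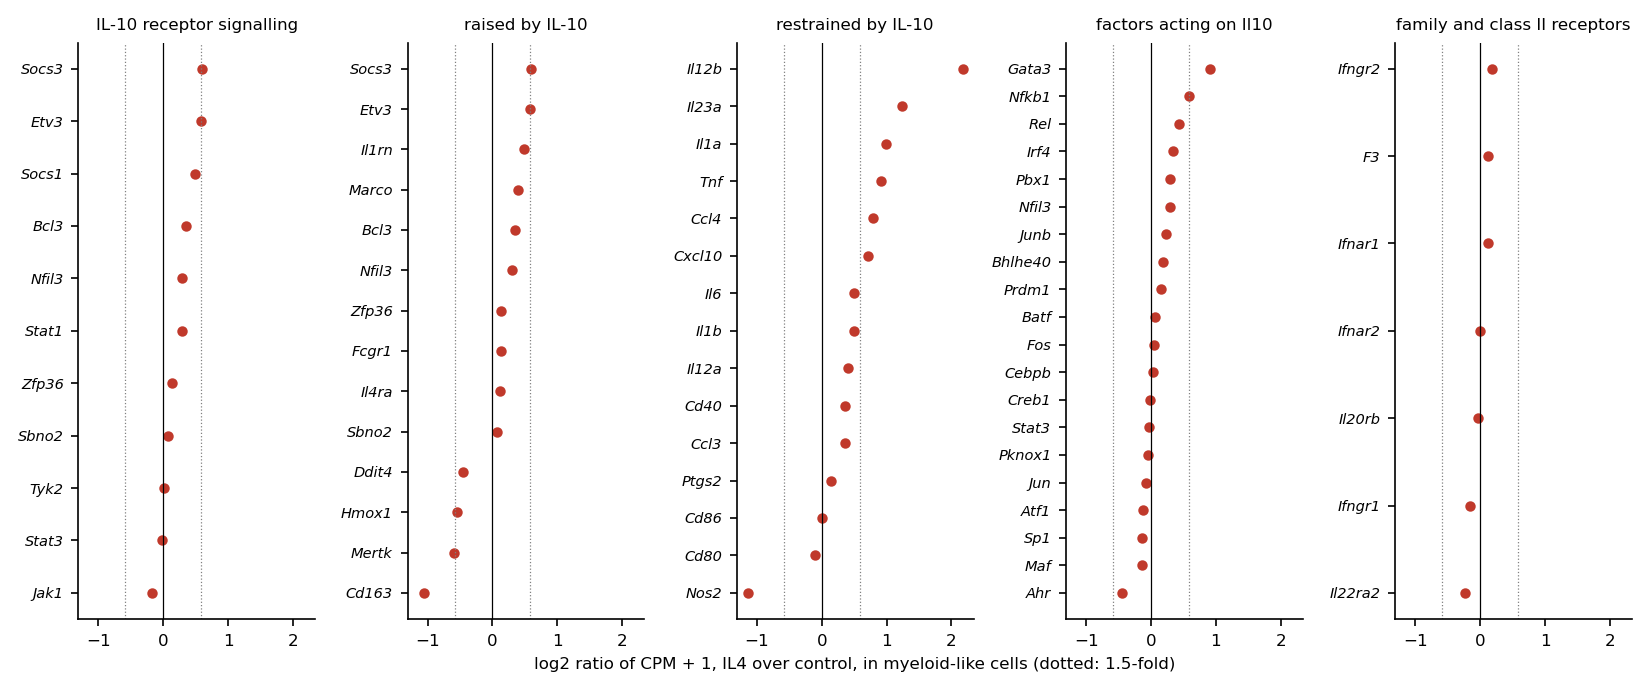
Log2 ratio of CPM + 1, IL4 over control, in myeloid-like barcodes for the members of 5 gene lists with at least 20 UMIs; dotted lines mark 1.5-fold in either direction. Inflammatory genes that IL-10 restrains lie mostly right of 0 (median 0.50, with Il12b at 2.18 and Nos2 at -1.14). The factors acting on Il10 lie on both sides of 0 (median 0.06, with Gata3 at 0.91 and Ahr at -0.45), and no family member passes a dotted line.

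Il10-positive myeloid-like barcodes were set against Il10-negative ones within each library. They were shallower, with a median of 6496 UMIs against 7773.5 in the IL4 and 6825 against 8811.5 in the control library. They were also richer in the 8 macrophage markers, at 46.0 against 29.0 UMIs per 10000 in the IL4 and 44.0 against 28.1 in the control library. The part of these markers in the genes named next was not tested. Ranked by the lower of their 2 libraries' ratios, the top 10 genes were Gas6, Ednrb, Cxcl1, Cdk5r1, Gxylt2, Ccl8, Sash1, Pf4, Cd38 and Il23a, with log2 ratios of 1.03 to 1.36 in the IL4 and 1.14 to 1.54 in the control library. They were chosen by these ratios, so no test is attached. The control ratios depended on the depth at which a barcode was called Il10-positive. Thinned to 500 or to 2000 UMIs, all 10 genes stayed past 1.5-fold in the IL4 library, but 8 of 10 did in the control library at either depth. The control log2 ratio of Cxcl1 was 0.33 at 500 UMIs, that of Gxylt2 was 0.33 at 2000 UMIs, and that of Ccl8 was 0.58 at 500 and 0.40 at 2000 UMIs. Control Gas6 stood at 0.65 at 2000 UMIs. Only 266 control barcodes were Il10-positive at 1000 UMIs, and 156 at 500 UMIs. Cxcl1, a chemokine that attracts neutrophils, stood at 733.0 CPM in Il10-positive and 306.5 CPM in Il10-negative barcodes of the IL4 library, and at 343.2 CPM in Il10-positive and 147.1 CPM in Il10-negative ones of the control library. Ccl8, a chemokine of resident-like macrophages, stood at 152.4 CPM in Il10-positive and 58.9 CPM in Il10-negative barcodes of the IL4 library, and at 117.4 CPM in Il10-positive and 52.8 CPM in Il10-negative ones of the control library. Gas6, a ligand of MERTK, stood at 18.2 CPM in Il10-positive and 6.50 CPM in Il10-negative barcodes of the IL4 library, and at 32.1 CPM in Il10-positive and 12.9 CPM in Il10-negative ones of the control library.

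The same lists were counted in Il10-positive over Il10-negative barcodes, where of 10855 genes 2.11% were higher and 2.1% lower in the IL4 library, and 4.38% higher and 6.61% lower in the control library. Of the 13 inflammatory genes that IL-10 restrains and that had at least 100 UMIs in each library, 3 were higher in the IL4 and 6 in the control library, and 0 were lower in either. Thinned to 500 UMIs, 3 were higher and 1 lower in the IL4 library and 5 higher and 2 lower in the control library. Of all genes at that depth, 2.61% were higher and 3.7% lower in the IL4 library, and 6.42% and 11% in the control library. Thinned to 2000 UMIs, 3 were higher and 1 lower in the IL4 library and 3 higher and 0 lower in the control library. The shares of all genes were then 1.33% higher and 1.01% lower in the IL4 library, and 2.45% and 3.85% in the control library. Tnf stood at 743.2 CPM in Il10-positive and 409.6 CPM in Il10-negative barcodes of the IL4 library, and at 417.5 CPM in Il10-positive and 226.3 CPM in Il10-negative ones of the control library. Il1a had log2 ratios of 1.02 in the IL4 and 1.08 in the control library, the control one being 0.51 at 2000 UMIs. Of the 11 signalling genes, 0 were higher and 0 lower in either library. Of 13 genes that IL-10 is known to raise, 2 were higher in the IL4 and 1 in the control library, and 0 were lower. Cd163 had log2 ratios of 0.92 in the IL4 and 1.05 in the control library, on 34 and 27 UMIs in Il10-positive barcodes. Mertk had 0.66 and 0.53. Of 19 factors acting on Il10, 0 were higher and 1 lower in each library. Of 6 family members, 1 was higher in the IL4 and 0 in the control library. Maf stood at 313.4 CPM in Il10-positive and 230.0 CPM in Il10-negative barcodes of the IL4 library, and at 359.5 CPM in Il10-positive and 259.4 CPM in Il10-negative ones of the control library, log2 ratios of 0.44 and 0.47. Genes lowest in Il10-positive barcodes were led by Ccl17, a chemokine of dendritic cells, at 5.50 CPM against 20.3 CPM in Il10-negative ones of the IL4 library and 1.92 against 13.2 CPM in the control library. Mgl2, a lectin of dendritic cells and alternatively activated macrophages, stood at 13.2 against 55.7 CPM in the IL4 and 31.2 against 82.9 CPM in the control library. Ccl17 and Mgl2 were named after their values were seen.

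Across 10 gated classes with at least 50 barcodes in both libraries (20 points, which share library and depth), the genes whose log2 levels followed Il10 most closely of 10945 compared were Gdf15 (Pearson r 0.87), Slc25a28, Sema4b, Sh3bp5 and Cpd. For Il10ra they were Smim3 (r 0.86), Tuba1c, Trdmt1, Fam214b and Nlrx1. For Il10rb they were Ccrl2 (r 0.95), Atp6v1e1, Atg7, Sgms2 and Clec4d. Il10 itself followed Il10ra with r 0.25 and Il10rb with r 0.53, and the receptor chains followed each other with r 0.47. These values describe likeness over the same 20 points and carry no test.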

How the data were processed

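For each of the 2 libraries the authors deposited raw UMI counts, which per the submitters' processing notes came from Cell Ranger 7.2.0 with mm10. The sources used here give neither the gene annotation nor any doublet removal. A barcode was kept with 500 UMIs or more, 250 genes or more and a mitochondrial share of 10% or less, 13762 of 13873 (99.2%) in the IL4 and 8937 of 8994 (99.4%) in the control library.

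Classes were set by the number of marker genes with a UMI. T-like, NK-like, B-like and neutrophil-like barcodes needed at least 4 of their 8 markers and DC-like ones at least 3 of 10, each with at most 5 UMIs per 10000 in 8 macrophage genes. Barcodes above that limit, or of more than 1 class, were set apart as mixed. Myeloid-like barcodes needed at least 5 of 14 markers and at most 2 each of the T, NK and B lists. The rest, 970 IL4 and 504 control barcodes, were not assigned. These limits were chosen after the data had been seen. No doublet caller was run, so doublets within a class remain. At the lowest marker number allowed lay 402 IL4 and 264 control myeloid-like, 387 and 251 DC-like, 35 and 10 T-like and 54 and 15 NK-like barcodes. Of the 14 myeloid markers 12 were highest in their own class, all but Fcgr3 and Cd14, and in the other classes all were.

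UMIs were summed per class and library, and CPM carries exact Poisson and ratios exact conditional 95% intervals. Log2 ratios add 1 CPM. Shares used barcodes thinned to 1000 UMIs without replacement (seed 11) with Clopper-Pearson intervals. Genes with at least 20 UMIs over both libraries were compared and a 1.5-fold difference was called. No p-values were computed, since each group has 1 library. Scripts were tested on simulated counts. The genes named from each list are up to 4 with the largest log2 ratio. Jak1, Tyk2, Stat3, Il1rn, Hmox1, Tnf, Ccl4, Cxcl10 and Maf were added after their values were seen. The 3 genes and all lists were chosen with earlier results of these data known. Python 3.11.15, NumPy 2.4.6, SciPy 1.17.1, pandas 2.3.3 and matplotlib 3.10.9 were used.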

Additional observations from a re-analysis of the deposited data

Results flagged for a closer look

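Within T-like cells, the Il10 ratio of IL4 over control lay on opposite sides of 1 in barcodes with Xist and in barcodes with Y-linked transcripts. Among Xist-only barcodes, 208 in the IL4 and 114 in the control library, Il10 stood at 35.7 CPM in the IL4 and 60.0 CPM in the control library, a ratio of 0.596 (0.429 to 0.829). Among Y-only barcodes, 48 in each library, it stood at 45.9 CPM in the IL4 and 19.9 CPM in the control library, a ratio of 2.31 (1.10 to 5.09). The T-like value rests on few barcodes, 1 of which gave 39 of the 96 Il10 UMIs of the control library. That barcode lies among the Xist-only ones, which held 73 Il10 UMIs in the control library, against 12 in the Y-only ones. The Xist-only ratio thus leans on 1 barcode. It was not computed without that barcode, so no direction is read from it. The difference between the kinds of barcode was not tested.

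Il10rb was likewise lower in the IL4 library among Xist-only and higher among Y-only barcodes of the myeloid-like class. Its ratio was 0.939 (0.902 to 0.978) in Xist-only and 1.14 (1.05 to 1.23) in Y-only myeloid-like barcodes. In monocyte-like barcodes the ratio was 0.890 (0.836 to 0.946) in Xist-only and 1.13 (1.004 to 1.28) in Y-only ones. These differences were not tested either, and 1 library per group gives no estimate of how far animals differ.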

How the results depend on the processing

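No paired analysis was possible because each group has 1 library. For Il10 in myeloid-like cells the log2 ratio was 1.54 and lay between 1.47 and 1.60 under 12 alternatives, past 1.5-fold in all of them. Il10ra had 0.38, against 0.32 in Xist-only barcodes, 0.27 in Y-only barcodes and 0.43 relative to the median ratio of all genes, and was short of 1.5-fold under all 12. Il10rb had 0.05, against -0.090 in Xist-only, 0.18 in Y-only and 0.10 relative to the median. The count of genes past 1.5-fold, 221 higher and 169 lower, was 676 and 862 with 0.1 CPM added in place of 1, 93 and 54 with 5 CPM added, and 280 and 128 relative to the median. Gata3, with a log2 ratio of 0.91, had -0.25 in Y-only barcodes. Il12b had 2.18, against 0.33 with mixed barcodes kept. In NK-like cells the Il10 log2 ratio of 0.43 was 1.92 with mixed barcodes kept. In Xist-only barcodes Nos2 had -0.40, against -1.14 in all, and in Y-only barcodes Il23a had 2.28, against 1.23. The thinned shares of single genes and the control ratios of Il10-positive over Il10-negative barcodes moved with the depth to which barcodes were thinned. The cause of these shifts was not tested. A value was said to stay if it shifted no further than its own counting interval reaches, which is far at low counts. For counts of genes the limit was 1.5-fold. Of the main comparisons 36 stayed and 10 moved. Of the values outside them, 383 stayed, 123 moved and 1, the Gata3 value above, was past 1.5-fold and changed sign. Staying does not mean a small shift: Il10 in neutrophil-like cells stayed by this rule, with log2 ratios of -0.31 in all and 1.30 in Y-only barcodes. Direction was less stable for small ratios: of 42 IL4-over-control log2 ratios, 13 changed sign under at least 1 alternative. Gata3 was the one of these 13 past 1.5-fold in the main values, and the others include Il10 in T-like, NK-like and neutrophil-like cells, Il10rb in DC-like cells, Socs1, Ifngr2 and Il22ra2. Of the 13 ratios past 1.5-fold, 7 stayed past it under every alternative run. The numbers of T-like, B-like and neutrophil-like barcodes limit what these classes can show, and the design cannot tell the treatment apart from differences between mice or preparations.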
